A study of Mus musculus with 12 samples.

Results

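*Arhgap29* and 9 genes of the Hippo-YAP pathway were followed through 12 Rd76-9 rhabdomyosarcoma tumors. The genes were taken by name, 10 of the 38898 RefSeq genes in the files: *Arhgap29*, *Yap1*, *Wwtr1*, *Tead1*, *Lats1*, *Lats2*, *Amotl2*, *Ajuba*, *Axl* and *Ankrd1*. *Arhgap29* was selected on its count and TPM values, which were lower in treated tumors here, so its differences from vehicle are described below with no test. The other 9 genes were chosen as members of the pathway, with earlier results of these data known. All 10 genes had enough reads to be tested.

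Rd76-9 is a mouse line from a methylcholanthrene-induced embryonal rhabdomyosarcoma, a tumor related to skeletal muscle. It was injected into the flank of wild-type C57/Bl6J mice aged 8 to 12 weeks. Dosing started at day 7 and the tumors were dissected at day 16. There were 3 tumors each from mice given vehicle (saline and empty nanoparticles, m1 to m3), vincristine (VCR, 0.25 mg/kg every 7 days, m4 to m6), RCM1-NPFA (8 µg every 48 hours, m7 to m9) or VCR + RCM1-NPFA (m10 to m12). VCR blocks microtubules. RCM1 inhibits the transcription factor FOXM1 and was carried by folic acid-coated nanoparticles. The treatment label of m1 to m3 also names RCM1, and these tumors were taken as vehicle-treated from their titles and the study's methods. RNA came from whole tumors, host cells included, and all tumors came from 1 cell line. The labels do not say that each tumor came from its own mouse, so p-values measure the spread between these tumors.

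The Hippo pathway restrains the paired coactivators YAP (*Yap1*) and TAZ (*Wwtr1*). The kinases LATS1 and LATS2 phosphorylate both proteins and keep them in the cytoplasm, where angiomotins such as AMOTL2 also hold them. Without that mark YAP and TAZ enter the nucleus, bind TEAD factors and switch on genes such as *Ankrd1*, *Axl*, *Amotl2*, *Ajuba* and *Lats2*. ARHGAP29 is a target of this kind that lowers the number of actin stress fibers, and stress fibers in turn keep YAP active. In embryonal rhabdomyosarcoma, high YAP activity is known to hold muscle precursors undifferentiated. Much of the pathway works through phosphorylation and protein location, which RNA levels do not show.

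TEAD factors recognize the letters GGAATG, or CATTCC on the other strand. These letters were searched in the 250 bases before each RefSeq start of a gene. The windows covered 9 of the 10 genes, all but *Tead1*, which was not searched. The letters were in 7 of their 12 windows, which belong to *Yap1*, *Wwtr1*, *Amotl2*, *Ajuba*, *Axl* and *Ankrd1*, and in 12.6% of all 32851 windows. The windows of *Wwtr1* overlap and share a single match, which is counted in each of them. The windows of *Arhgap29*, *Lats1* and *Lats2* did not hold them. Upstream stretches of 4 genes are shown. They belong to the coactivators *Yap1* and *Wwtr1*, of which only *Wwtr1* was called after VCR, and to *Ajuba* and *Arhgap29*. *Ajuba* had 2 matches, as did *Ankrd1*, which is not shown, and *Arhgap29* had none. The stretches are RefSeq sequence of build GRCm38.p6, written 5′ to 3′ on the strand of the gene. They were cut to bases outside annotated exons, with each match in capitals. The first is chr3:121953006-121953112 (plus strand) for *Arhgap29*, the second chr9:8004639-8004846 (minus) for *Yap1*, the third chr3:57575911-57576160 (minus) for *Wwtr1* and the last chr14:54577662-54577911 (minus) for *Ajuba*.
Arhgap29: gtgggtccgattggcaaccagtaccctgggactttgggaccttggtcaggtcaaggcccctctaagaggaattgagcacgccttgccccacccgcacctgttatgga
Yap1: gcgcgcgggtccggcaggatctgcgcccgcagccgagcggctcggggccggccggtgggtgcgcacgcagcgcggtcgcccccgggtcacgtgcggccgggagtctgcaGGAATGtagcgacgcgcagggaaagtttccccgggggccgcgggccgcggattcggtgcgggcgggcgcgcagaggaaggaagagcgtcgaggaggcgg
Wwtr1: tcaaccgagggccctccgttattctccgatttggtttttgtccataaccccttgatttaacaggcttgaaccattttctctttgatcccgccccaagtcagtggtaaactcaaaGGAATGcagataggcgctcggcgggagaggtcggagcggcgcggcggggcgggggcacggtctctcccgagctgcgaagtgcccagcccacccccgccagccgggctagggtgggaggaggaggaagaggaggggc
Ajuba: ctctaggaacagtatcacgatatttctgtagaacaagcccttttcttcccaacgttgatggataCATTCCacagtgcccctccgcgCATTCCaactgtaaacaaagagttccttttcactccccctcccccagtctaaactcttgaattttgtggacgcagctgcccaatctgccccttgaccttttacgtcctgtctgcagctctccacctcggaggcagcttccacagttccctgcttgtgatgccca

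A match began 141 bases before the start in *Yap1* and 136 bases before it in *Wwtr1*. In *Ajuba* the matches began 186 and 164 bases before the start. A match is a run of letters and not a measured binding site, and the absence of one says only that these letters are not in the window.

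The tumors had between 29342195 and 32108055 estimated counts each. Levels are compared between tumors in CPM, read counts divided by the TMM-scaled library size, and between genes in TPM, which also divides by transcript length. Fold changes and tests are from edgeR over 17602 genes, and a gene was called changed at an adjusted p under 0.1. *Myf5*, a myogenic regulator, was between 48.9 and 69.9 CPM in all tumors. *Myod1* and *Myog*, other regulators of the muscle lineage, were under 0.1 CPM in every vehicle-treated tumor. RNA of mature muscle fiber genes was uneven. The summed level of 14 of them was 15.5 to 123 CPM in vehicle-treated tumors, 1705 to 12967 CPM after VCR, 112 to 19811 CPM after RCM1-NPFA and 435 to 4851 CPM after the combination. Tumors m5 and m9 stood apart with the highest fiber sums, so the results that moved are also given without them. After VCR 7 of the 14 fiber genes rose, as did 3 of 5 tested genes in a list of 6 muscle lineage markers (*Myod1*, *Myog* and *Des*, which encodes the filament protein desmin). Of 8 fibroblast markers 3 rose (*Col1a1*, *Dcn* and *Pi16*), and of 8 pericyte markers 1 did (*Rgs5*). In these lists 0 genes fell, and 0 leukocyte or adipocyte markers were called. Over all genes, 2.8% were called higher and 2.75% lower after VCR. The sum of the fibroblast markers overlapped, at 4338 to 6087 CPM with vehicle and 5326 to 5857 CPM after VCR. That of the pericyte markers did too, at 361 to 482 CPM and 442 to 477 CPM.

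In vehicle-treated tumors the target genes *Axl*, *Ankrd1* and *Amotl2* had the highest levels and the LATS kinases the lowest. *Axl* was at 378 ± 17.6 TPM (mean ± SD, n = 3 in each group) and *Ankrd1* at 367 ± 62.0 TPM, and the ranges of these genes overlapped. *Amotl2* followed at 104 ± 5.32 TPM, *Wwtr1* at 55.4 ± 2.54 TPM and *Yap1* at 44.4 ± 2.22 TPM. *Yap1* overlapped with *Ajuba* at 41.9 ± 2.15 TPM. *Arhgap29* came next at 34.1 ± 3.98 TPM, above *Tead1* at 23.2 ± 1.72 TPM. *Lats2* at 16.1 ± 2.21 TPM and *Lats1* at 15.8 ± 3.43 TPM overlapped. The other neighbors in this order did not overlap. The places of *Axl* and *Arhgap29* depend on which transcripts are counted. From curated RefSeq transcripts alone, *Axl* was at 5.27 TPM and *Arhgap29* at 11.3 TPM, the lowest of the 10 genes, while *Tead1* stayed at 23.2 TPM and *Yap1* was at 32.6 TPM, below *Ajuba*. No new quantification was made, and these values leave out the TPM that kallisto gave to predicted transcripts. A single predicted transcript held 62.4% of *Axl* TPM with vehicle.

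*Arhgap29* (chr3:121953113-122016677 of GRCm38, plus strand) was lower in all 9 treated tumors than in all 3 vehicle-treated tumors. The vehicle-treated tumors m1, m2 and m3 had 89.4, 109 and 124 CPM. After VCR the values were 50.5, 44.5 and 66.5 CPM in m4, m5 and m6. After RCM1-NPFA they were 80.4, 73.7 and 58.7 CPM in m7, m8 and m9. The lowest vehicle-treated tumor was thus above the highest treated tumor, which was a RCM1-NPFA tumor. After the combination the levels were close together, at 64.4, 57.5 and 58.4 CPM in m10, m11 and m12. The group means were 107 ± 17.1 CPM with vehicle, 53.8 ± 11.4 CPM after VCR, 70.9 ± 11.1 CPM after RCM1-NPFA and 60.1 ± 3.76 CPM after VCR + RCM1-NPFA. VCR-treated tumors held 0.502 times the vehicle level of *Arhgap29*, a log2 fold change of -0.99 (standard error 0.16). It was -0.60 (standard error 0.16) after RCM1-NPFA and -0.84 (standard error 0.16) after the combination. These values chose the gene, and they and their standard errors are a description. In whole tumors, fewer cells that express *Arhgap29* and less *Arhgap29* RNA per cell cannot be told apart.

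**Figure D1:**
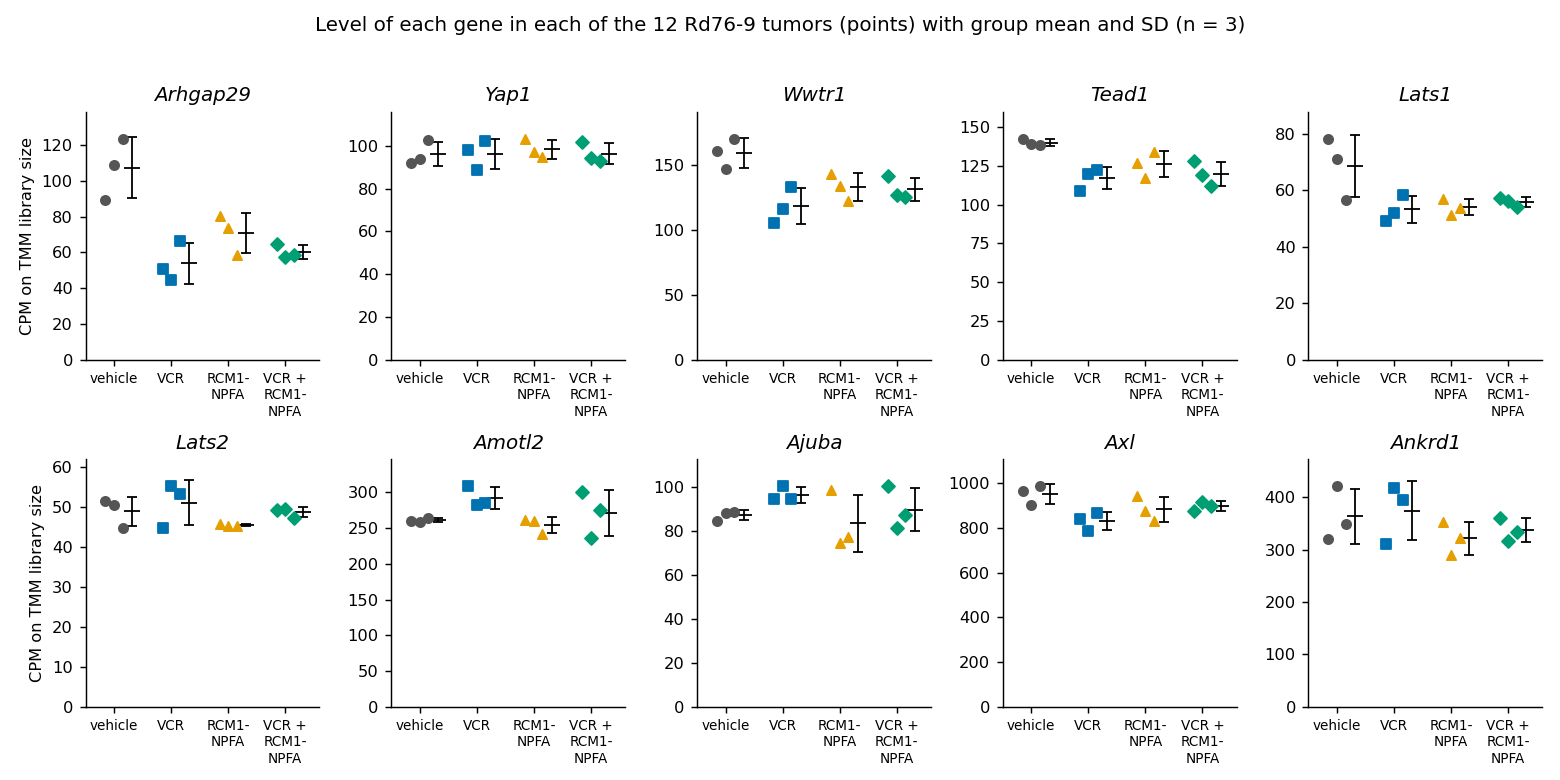
Level of each gene in CPM (vertical axis, from 0) in each of the 12 tumors (points), by group, with a horizontal tick and bar for the group mean and SD (n = 3). *Arhgap29* was at 89.4 CPM or more in vehicle-treated tumors and at 80.4 CPM or less in treated tumors, while *Yap1* stayed between 88.6 and 103 CPM in all of them.

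Among the treated tumors, VCR tumors overlapped with RCM1-NPFA tumors in *Arhgap29*, and the combination overlapped with both. The overlap of RCM1-NPFA with the other groups came from m9 alone, since m7 and m8 were above every VCR and every combination tumor. The combination differed from VCR alone by a log2 fold change of 0.16 (standard error 0.16, edgeR adjusted p = 0.871) and from RCM1-NPFA alone by -0.24 (standard error 0.16, edgeR adjusted p = 0.9999). Without m5 and m9 these log2 fold changes were 0.038 and -0.36, and neither passed the test. Neither comparison of treated groups was used to choose the gene. On the log2 scale the combination lay 0.75 (standard error 0.23) above the sum of the single-drug differences, a value given with no test because it uses the vehicle-treated tumors.

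The lowest *Arhgap29* level after VCR was in m5 and the lowest after RCM1-NPFA in m9, the tumors with the most muscle fiber RNA. Without both tumors the log2 fold change of *Arhgap29* was -0.88 after VCR, -0.48 after RCM1-NPFA and -0.84 after the combination. Of 12 endothelial markers, 4 rose after VCR, where 2.8% of all genes were called higher. After RCM1-NPFA and after the combination 0 of these markers were called, as were 0% of all genes. Their sum was 185 to 260 CPM with vehicle, 271 to 364 CPM after VCR, 259 to 319 CPM after RCM1-NPFA and 265 to 285 CPM after the combination, so that only the lowest RCM1-NPFA tumor lay within the range of vehicle. Leukocyte markers did not follow the groups, with sums of 762 to 918 CPM with vehicle and 750 to 948 CPM in treated tumors. Keratinocyte markers stayed at or under 6.73 CPM in sum. The part of these cell types in the *Arhgap29* values was not tested.

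GENCODE lists 9 transcripts of *Arhgap29*, of which the longest coding one has 23 exons. In the deposited RefSeq quantification, 2 of 4 transcripts carried nearly all of its TPM. The predicted transcript of 4929 bases was at 19.2, 22.8 and 26.1 TPM in vehicle-treated tumors, and its mean was 12.2 TPM after VCR, 17.0 TPM after RCM1-NPFA and 14.5 TPM after the combination. The curated transcript of 5687 bases was at 9.90, 13.1 and 10.2 TPM with vehicle, and its mean was 4.48, 5.57 and 5.01 TPM in the same order. The mean of both was lower in each treated group, and that of the longer one by the larger factor. The 4929-base transcript therefore made up 66.4% of *Arhgap29* TPM with vehicle (63.6% to 70.7%), 72.7% after VCR (72.3% to 73.5%), 75.2% after RCM1-NPFA (72.9% to 77.0%) and 73.8% after the combination (72.1% to 74.8%). The 9 treated tumors were all above the 3 vehicle-treated tumors in this share. The share of the 5687-base transcript overlapped, at 27.6% or more with vehicle and 27.9% or less in treated tumors. These shares rest on how kallisto divided reads between transcripts that share most of their sequence, and they come from the same tumors that chose the gene.

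**Figure D2:**
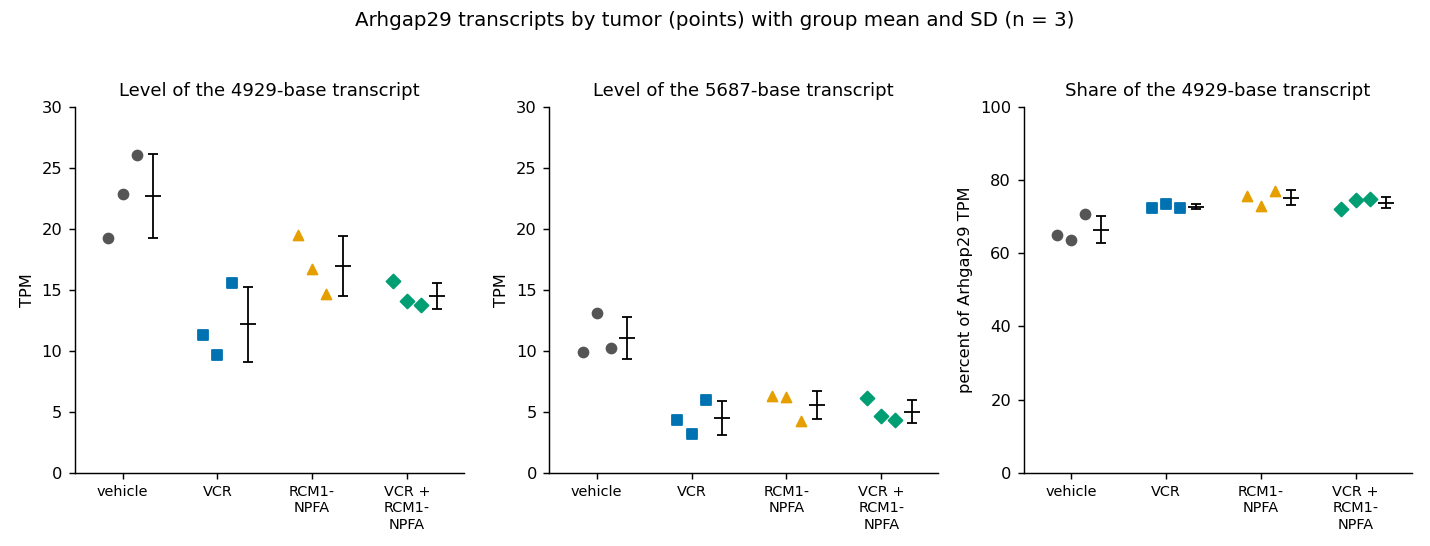
Level in TPM of the 4929-base (left) and 5687-base (middle) transcripts of *Arhgap29* and the share of *Arhgap29* TPM in the 4929-base transcript in percent (right), per tumor (points) with group mean and SD (n = 3). Vehicle-treated tumors were highest for both transcripts, except that 1 RCM1-NPFA tumor at 19.5 TPM reached above the lowest vehicle value of 19.2 TPM for the 4929-base transcript.

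Of the paired coactivators, *Wwtr1* was called lower after VCR and *Yap1* was not, and the difference between the genes was not tested. *Yap1* (chr9:7931999-8004638) had 92.1, 93.8 and 103 CPM in vehicle-treated tumors and 98.2, 88.6 and 102 CPM after VCR. It was between 92.8 and 103 CPM in the RCM1-NPFA and combination tumors, and every treated group overlapped with vehicle. Its log2 fold change after VCR was 0.00 (standard error 0.074, edgeR adjusted p = 0.991), and -0.14 when effective transcript lengths were taken into account. After RCM1-NPFA it was 0.03 (adjusted p = 0.929) and after the combination 0.00 (adjusted p = 0.998).

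*Wwtr1* (chr3:57455644-57575910), which encodes TAZ, had 161, 147 and 170 CPM with vehicle and 105, 116 and 133 CPM after VCR. Every VCR tumor was below every vehicle-treated tumor, against 10.9% of all genes. *Wwtr1* fell after VCR with a log2 fold change of -0.43 (standard error 0.1, edgeR adjusted p = 0.0748), or to 0.742 times the vehicle level. After RCM1-NPFA its level was 143, 134 and 122 CPM, and after the combination it was 142, 127 and 125 CPM. All 9 treated tumors were thus below all vehicle-treated tumors, against 1.9% of all genes. Neither RCM1-NPFA nor the combination passed the test of the difference. For *Wwtr1* it was -0.26 on the log2 scale after RCM1-NPFA (standard error 0.1, adjusted p = 0.437) and -0.28 after the combination (standard error 0.1, adjusted p = 0.666).

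In TPM, vehicle-treated tumors held 1.31, 1.14 and 1.30 times as much *Wwtr1* as *Yap1*. The ratio was 0.922, 1.09 and 1.05 after VCR and 1.09, 1.09 and 1.00 after RCM1-NPFA. It was 1.07, 1.04 and 1.09 after the combination. The ratio had a mean of 1.25 ± 0.0984 with vehicle and 1.02 ± 0.0881, 1.06 ± 0.0538 and 1.07 ± 0.0269 in the treated groups, and no treated tumor reached the lowest vehicle-treated tumor. It was worked out after both genes had been compared and was given no test. The ratio also depends on which *Yap1* transcripts are counted. A single predicted transcript held 18.6% of *Yap1* TPM with vehicle, 3.87% after VCR, 13.4% after RCM1-NPFA and 13.3% after the combination. From curated transcripts alone, vehicle means were 32.6 TPM for *Yap1* and 55.4 TPM for *Wwtr1*.

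*Tead1* (chr7:112679356-112906784), a DNA-binding partner of both coactivators, had 143, 139 and 139 CPM with vehicle and 109, 120 and 122 CPM after VCR. All VCR tumors were below all vehicle-treated tumors, against 10.9% of all genes. *Tead1* fell after VCR with a log2 fold change of -0.26 (standard error 0.075, edgeR adjusted p = 0.0981). Its level was 127, 117 and 134 CPM after RCM1-NPFA and 128, 119 and 112 CPM after the combination, again all below vehicle. For *Tead1* it was -0.15 on the log2 scale after RCM1-NPFA (standard error 0.075, adjusted p = 0.545) and -0.23 after the combination (standard error 0.075, adjusted p = 0.666).

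Of the kinases that hold YAP and TAZ back, *Lats1* was called lower after VCR and *Lats2* was not. *Lats1* (chr10:7681200-7716461) had 78.2, 71.2 and 56.6 CPM with vehicle and 49.2, 51.9 and 58.5 CPM after VCR. It fell after VCR with a log2 fold change of -0.37 (standard error 0.11, edgeR adjusted p = 0.0992), although the groups overlapped because m3 was below m6. RCM1-NPFA tumors were between 51.2 and 56.7 CPM (log2 fold change -0.35, adjusted p = 0.419) and combination tumors between 53.9 and 57.2 CPM (log2 fold change -0.30, adjusted p = 0.666). Treated tumors were thus close together, and the spread of *Lats1* lay mostly among the vehicle-treated tumors. *Lats2* had 51.4, 50.6 and 44.7 CPM with vehicle and 44.6, 55.3 and 53.2 CPM after VCR, with overlapping groups. *Lats2* had a log2 fold change of 0.06 after VCR (standard error 0.085, adjusted p = 0.713) and -0.11 after RCM1-NPFA (adjusted p = 0.726). It was -0.01 after the combination (adjusted p = 0.991).

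Among the partners in the cytoplasm, *Amotl2*, which holds YAP at cell junctions, had 259, 259 and 265 CPM with vehicle and 309, 282 and 285 CPM after VCR. Each VCR tumor was above each vehicle-treated tumor, against 13.5% of all genes. The difference did not pass the test (log2 fold change 0.16, standard error 0.086, edgeR adjusted p = 0.291). *Ajuba*, a LIM protein that binds and restrains LATS kinases, showed the same order, with 84.5, 88.0 and 88.7 CPM with vehicle and 94.3, 100.4 and 94.2 CPM after VCR (log2 fold change 0.15, standard error 0.11, adjusted p = 0.446). After RCM1-NPFA and after the combination both genes overlapped with vehicle, with log2 fold changes between -0.06 and 0.05.

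The target genes with the highest levels, *Axl* and *Ankrd1*, were not called by edgeR in any comparison. *Axl*, a receptor tyrosine kinase, had 965, 904 and 988 CPM with vehicle and 840, 784 and 866 CPM after VCR. Every VCR tumor was below every vehicle-treated tumor, against 10.9% of all genes. The log2 fold change of -0.20 did not pass the test (standard error 0.072, edgeR adjusted p = 0.148). *Axl* overlapped with vehicle after RCM1-NPFA (log2 fold change -0.11, adjusted p = 0.663) and after the combination (log2 fold change -0.09, adjusted p = 0.796). *Ankrd1*, a stretch-responsive ankyrin repeat protein of muscle, had 320, 422 and 349 CPM with vehicle and 311, 418 and 394 CPM after VCR. The values lay over each other, with a log2 fold change of 0.04 (standard error 0.13, adjusted p = 0.881). The log2 fold change of *Ankrd1* was -0.18 after RCM1-NPFA (adjusted p = 0.706) and -0.11 after the combination (adjusted p = 0.861).

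**Figure D3:**
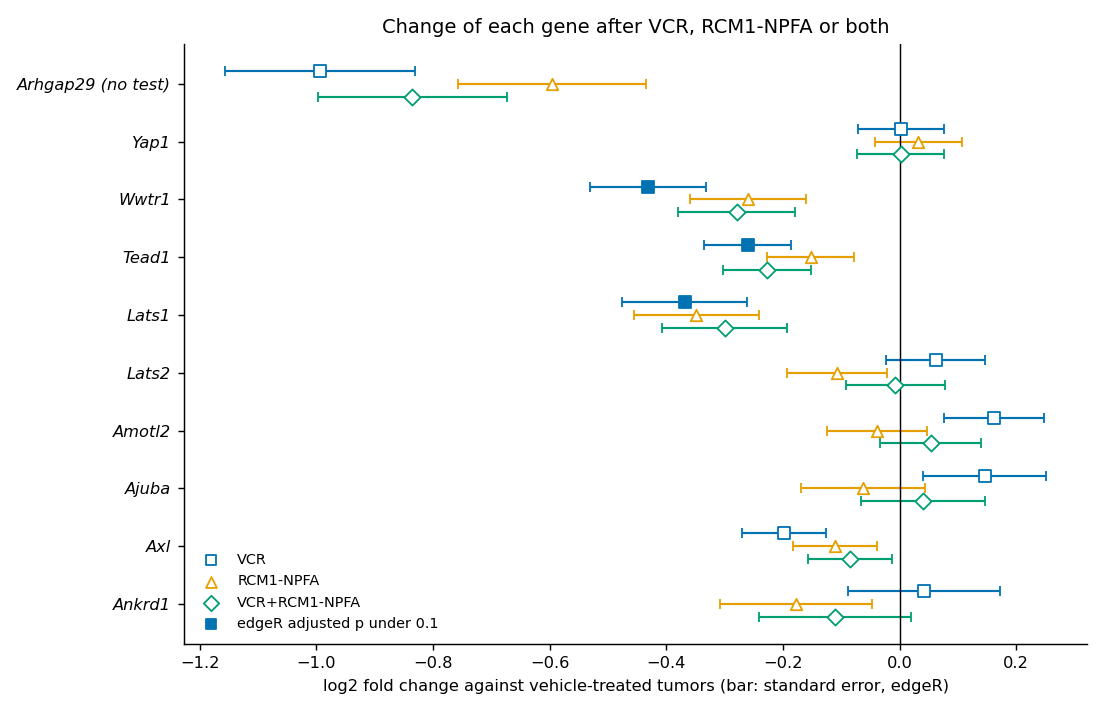
Log2 fold change against vehicle-treated tumors (horizontal axis, with a standard error worked out from the edgeR F statistic) of each gene after VCR, RCM1-NPFA or both. Filled symbols mark an adjusted p under 0.1, which *Wwtr1* (-0.43), *Tead1* (-0.26) and *Lats1* (-0.37) reached after VCR, and *Arhgap29* (-0.99, -0.60 and -0.84) has no test.

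Of the 9 genes other than *Arhgap29*, 3 fell after VCR at an adjusted p under 0.1 (*Wwtr1*, *Tead1* and *Lats1*) and 0 rose. Over all genes tested, 2.75% were called lower and 2.8% higher after VCR, and 5.55% in either direction. An unadjusted p under 0.05 was found for 4 of the 9 (the 3 called genes and *Axl*) and for 22.1% of all genes. DESeq2 over the 12 tumors called 14.4% of the genes it tested after VCR, *Axl* and the same 3 genes among them. Every VCR tumor was below every vehicle-treated tumor in 3 of the 9 (*Wwtr1*, *Tead1* and *Axl*), against 10.9% of all genes. Every VCR tumor was above in 2 (*Amotl2* and *Ajuba*), against 13.5% of all genes. The median log2 fold change of the 9 genes was 0.00, as was that of all genes.

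The 3 calls after VCR were close to the threshold. All of them were lost without m1, m2, m4, m5, m11 or m12, and at 0.05 in place of 0.1. Without m3 the call of *Tead1* was lost, without m8 or m9 that of *Lats1*, and without m7 or m10 those of both. Without m6 all 3 held. Over all alternatives, log2 fold changes ran from -0.55 to -0.35 for *Wwtr1*, from -0.32 to -0.21 for *Tead1* and from -0.49 to -0.26 for *Lats1*. The adjusted p ran from 0.003 to 0.301 for *Wwtr1*, from 0.0196 to 0.315 for *Tead1* and from 0.0256 to 0.338 for *Lats1*.

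After RCM1-NPFA alone, 0 of the 9 genes were called, against 0% of all genes, and the smallest adjusted p of any gene was 0.419. An unadjusted p under 0.05 was found for 2 of the 9 (*Wwtr1* and *Lats1*) and for 9.78% of all genes. All RCM1-NPFA tumors were below all vehicle-treated tumors in 2 of the 9 genes (*Wwtr1* and *Tead1*), against 5.86% of all genes, and above in 0, against 5.56%. DESeq2 over the 12 tumors also called 0 of the 9, but 278 genes in all, or 1.52% of those it tested.

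After VCR + RCM1-NPFA, 0 of the 9 genes were called, against 0% of all genes, with a smallest adjusted p of 0.666 over all genes. An unadjusted p under 0.05 was found for 3 of the 9 (*Wwtr1*, *Tead1* and *Lats1*) and for 7.31% of all genes. In 2 of the 9 genes (*Wwtr1* and *Tead1*) every combination tumor was below every vehicle-treated tumor, against 5.53% of all genes, and in 0 every one was above, against 7.1%. DESeq2 over the 12 tumors called 0 of the 9 here too, and 60 genes in all, or 0.362% of those it tested. All comparisons with vehicle share the tumors m1, m2 and m3, so likeness between them is not independent.

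With the 3 treated groups averaged against vehicle, edgeR called 0.0682% of all genes (0.0454% lower and 0.0227% higher) and 0 of the 9. This average difference was -0.32 on the log2 scale for *Wwtr1* (standard error 0.08, adjusted p = 0.133), -0.34 for *Lats1* (standard error 0.086, adjusted p = 0.136) and -0.21 for *Tead1* (standard error 0.061, adjusted p = 0.15). *Arhgap29*, given with no test, had -0.81 (standard error 0.13). All 9 treated tumors were below all vehicle-treated tumors in 2 of the 9 genes (*Wwtr1* and *Tead1*), against 1.9% of all genes, and above them in 0, against 2.39%. The DESeq2 test over the 12 tumors called *Wwtr1*, *Tead1* and *Lats1* in this comparison, among 1305 genes or 7.87% of those it tested. Without m3 edgeR called *Lats1*, and without m6 it called *Wwtr1* and *Lats1*.

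The combination was also compared with each single drug. Of the 10 genes, 0 were called against VCR alone and 0 against RCM1-NPFA alone, as were 0% of all genes, and no member had an unadjusted p under 0.05, against 5.26% and 2.07% of all genes. No member had every combination tumor below every tumor of VCR alone (6.87% of all genes) or of RCM1-NPFA alone (2.63%). *Axl* was above VCR alone in every combination tumor (6.03% of all genes), at a log2 fold change of 0.11 (standard error 0.072, edgeR adjusted p = 0.855). *Lats2* was above RCM1-NPFA alone in every combination tumor (3.25% of all genes), at 0.10 (standard error 0.085, adjusted p = 0.9999). DESeq2 called 0 of the 10 in either comparison.

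The interaction asks whether the combination differed from the sum of the single drugs on the log2 scale. By edgeR it was called in 0 of the 9 genes and 0% of all genes. DESeq2 over the 12 tumors also called it in 0 of the 9, but in 472 genes in all, or 2.84% of those it tested. It was 0.41 for *Wwtr1* (standard error 0.14, edgeR adjusted p = 0.294) and 0.42 for *Lats1* (standard error 0.15, adjusted p = 0.297), the 2 of 9 genes with an unadjusted p under 0.05, as had 13.8% of all genes. For both genes the mean of the combination was not below that of VCR alone.

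Beyond the 10 genes, 4 lists of pathway genes held 69 genes in all, of which 67 apart from *Arhgap29* were tested and *Vgll1* was not. After VCR 6 of the 67 fell (*Wwtr1*, *Tead1*, *Lats1*, *Map4k5*, *Amot* and *F3*) and 0 rose, against 2.75% of all genes called lower and 2.8% higher. The 6 include 3 of the 9 genes above. The median log2 fold change of the 67 was -0.064, against 0.00 for all genes. After RCM1-NPFA, after the combination, in the treated average, in the combination against each single drug and in the interaction, 0 of them were called. *Map4k5*, *Amot*, *F3* and *Rasip1*, a binding partner of ARHGAP29 described below, kept their direction in 21 of 21 alternatives. Among these, the 0.05 threshold and the fits without an RCM1-NPFA or combination tumor left both groups compared unchanged. Log2 fold changes ran from -0.43 to -0.28 for *Map4k5*, -0.76 to -0.40 for *Amot*, -1.02 to -0.49 for *F3* and 0.62 to 0.88 for *Rasip1*. The calls of these 4 genes were lost in 12, 14, 12 and 6 of the 21. All 4 were lost without m2, m4, m5 or m11, and at 0.05 in place of 0.1. Without m1 *Map4k5* and *Amot* were lost, without m3 *Map4k5* and *F3*, without m7 *Amot* and *F3*, without m8 *Amot*, and without m10 or m12 all but *Rasip1*.

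Among 23 Hippo kinases and scaffolds, *Lats1* and *Map4k5* fell after VCR and 0 rose, against 2.75% of all genes called lower and 2.8% higher. A negative log2 fold change was found for 15 of the 23, against 49.7% of all genes. *Map4k5*, a kinase of a family that activates LATS, had 50.6, 48.6 and 50.1 CPM with vehicle and 38.6, 36.6 and 43.2 CPM after VCR. Every VCR tumor was below every vehicle-treated tumor, against 10.9% of all genes (log2 fold change -0.34, standard error 0.089, edgeR adjusted p = 0.087). Of 16 cytoplasmic partners of YAP and TAZ, 1 fell and 0 rose, against the same 2.75% and 2.8% of all genes. *Amot*, which binds YAP and was the one that fell, had 143, 123 and 88.2 CPM with vehicle and 74.5, 67.7 and 97.3 CPM after VCR (log2 fold change -0.57, standard error 0.17, adjusted p = 0.0992). Its groups overlapped, and its relative *Amotl2* lay in the other direction without passing the test.

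Of the 9 tested genes in the list of YAP, TAZ, TEAD and VGLL, *Wwtr1* and *Tead1* fell after VCR and 0 rose. Over all genes, 2.75% were called lower and 2.8% higher. Of 23 YAP and TAZ target genes other than *Arhgap29*, 1 fell and 0 rose, against the same 2.75% and 2.8%. A negative log2 fold change was found for 9 of the 23, against 49.7% of all genes, and the list median was 0.06. *F3*, which encodes tissue factor, the starter of blood clotting, was the one that fell, with 63.3, 96.4 and 134 CPM with vehicle and 48.6, 53.0 and 68.7 CPM after VCR (log2 fold change -0.79, standard error 0.22, edgeR adjusted p = 0.0937). Its groups overlapped, since m6 was above m1. The matricellular genes *Ccn1* and *Ccn2*, the most used readouts of YAP activity, were not called. *Ccn1* had 327, 248 and 311 CPM with vehicle and 400, 489 and 351 CPM after VCR (log2 fold change 0.49, standard error 0.23, adjusted p = 0.231). Every VCR tumor was above every vehicle-treated tumor in *Ccn1*, against 13.5% of all genes. *Ccn2* overlapped at 9.19 to 24.7 CPM with vehicle and 11.6 to 27.2 CPM after VCR (log2 fold change 0.11, adjusted p = 0.89).

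Of the partners of ARHGAP29 looked at one by one, *Rasip1* rose after VCR. *Rasip1*, which links the GTPase Rap1 to ARHGAP29 in blood vessels, had 11.91, 8.33 and 11.997 CPM with vehicle and 18.3, 22.03 and 15.5 CPM after VCR (log2 fold change 0.79, standard error 0.17, edgeR adjusted p = 0.0712). Every VCR tumor was above every vehicle-treated tumor, against 13.5% of all genes. The same order was seen after RCM1-NPFA (5.56% of all genes) and after the combination (7.1%). The log2 fold changes of *Rasip1* there were 0.45 and 0.46 (adjusted p = 0.442 and 0.669). *Rasip1* is mainly made by endothelial cells and is 1 of the 12 endothelial markers summed above. Of these 12, 4 rose after VCR (*Rasip1*, *Tie1*, *Esam* and *Egfl7*) and 0 fell, against 2.8% and 2.75% of all genes. The part of endothelial cells in the *Rasip1* values was not tested. The other binding partners of ARHGAP29 were not called. *Radil* was near 1.42 CPM with vehicle and 1.25 CPM after VCR (log2 fold change -0.18, adjusted p = 0.633), and *Ptpn13* was at 5.47 and 4.15 CPM (log2 fold change -0.40, adjusted p = 0.446). *Rap1a* and *Rap1b*, the GTPases upstream, had log2 fold changes of -0.13 and 0.07 (adjusted p = 0.36 and 0.573).

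**Figure D4:**
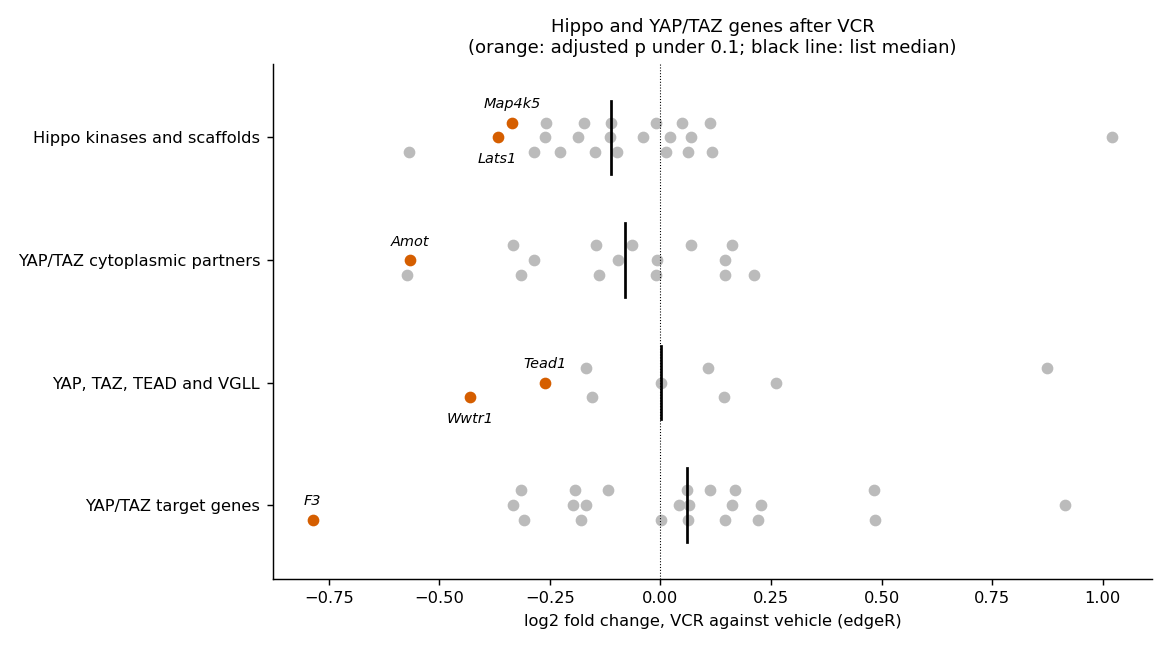
Log2 fold change after VCR against vehicle (horizontal axis) of the tested genes in 4 pathway lists, without *Arhgap29*, with 1 point per gene, a black line at each list median and orange for an adjusted p under 0.1. The called genes were *Map4k5* (-0.34), *Lats1* (-0.37), *Amot* (-0.57), *Wwtr1* (-0.43), *Tead1* (-0.26) and *F3* (-0.79), and every list had points on both sides of 0.

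Genes whose levels followed *Arhgap29* most closely were looked for among 14036 genes with a mean of at least 1 CPM, over the 12 tumors. The values are descriptions, since the tumors share the cell line, the groups and the makeup of each library. After each group's mean was subtracted from log2 CPM, the closest were *Phlpp1* (Pearson r = 0.948), *Ubtd2* (0.947), *Prkacb* (0.946) and *Arhgap39* (0.939). With Spearman's coefficient these 4 genes were tied at 0.944. Of them 3 were counted among the closest 4, but the tied values do not separate them. Without m5 and m9, 2 of the 4 genes stayed among the closest 4. Among the pathway members, *Yap1* was the closest within groups, with r = 0.863 at rank 41, and *Wwtr1* had r = 0.691 at rank 441. *Yap1* thus varied between tumors of a group along with *Arhgap29* although it did not follow the difference between groups. Its Spearman coefficient was 0.874, and r was 0.804 without m5 and m9. *Yap1* is named here as the closest of 9 members. Without m5 and m9, r of *Wwtr1* stayed at 0.696. That of *Axl* went from 0.625 to 0.230 and that of *Ankrd1* from 0.236 to 0.691, so such values can depend on single tumors.

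Without subtracting group means, the closest were *Rprd2* (r = 0.975), *Peak1* (0.968), *Eif4b* (0.957) and *Prkacb* (0.956), of which 2 stayed with Spearman's coefficient and 2 without m5 and m9. *Wwtr1* stood at rank 34 with r = 0.900 (Spearman coefficient 0.937, and r = 0.885 without m5 and m9) and *Axl* at rank 307 with r = 0.801. *Yap1* was far down, with r = 0.366. Pooled values carry the lower level in treated tumors for which *Arhgap29* was chosen. Tumors of 3 groups against 1 form clusters, so no test was made.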

How the data were processed

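RNA-seq data of 12 Rd76-9 tumors in 4 groups of 3 were used, grouped by their titles. The 10 genes and all gene lists were chosen with earlier results of these data known. The authors quantified poly-A libraries against GRCm38 transcripts with kallisto (version not given in the sources used here). The deposited estimated counts carry no normalization, and the deposited TPM values are scaled to depth and transcript length. The deposited effective lengths served only as offsets. The kit is named as stranded and the libraries as non-stranded, so an antisense gene's reads may be mixed with those of its partner.

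Estimated counts and TPM were summed over the 120299 transcripts, all of which matched one of 38898 RefSeq genes, and the sums of counts were rounded. The filterByExpr function of edgeR with a minimum count of 10 left 17602 genes. After TMM normalization, a single model of the 4 groups was fitted in edgeR 4.0.16 (R 4.3.3). Its quasi-likelihood F test was adjusted by Benjamini-Hochberg over all genes in each of 7 comparisons, and the threshold was 0.1 as in the study. The standard errors given were worked out from the log2 fold change and the F statistic of that test. The text names the 10 genes, every gene of the 4 pathway lists with an adjusted p under 0.1, and the 4 genes most like *Arhgap29* within groups and pooled (log2 CPM with a pseudocount of 0.1). *Ccn1*, *Ccn2*, *Rasip1*, *Rap1a*, *Rap1b*, *Radil* and *Ptpn13* were named as usual readouts or partners, *Rasip1* also because it passed the test, and a further list of genes is not reported here. Marker genes were named as cell type checks. Alternatives were DESeq2's size factors, no filter, only the groups compared, transcript length offsets, limma-voom (limma 3.58.1), a threshold of 0.05, the Wald test of DESeq2 1.42.0, leaving out each tumor, and leaving out m5 and m9 together. The edgeR step was tested on simulated data. Python 3.11.15, numpy 2.4.6, scipy 1.17.1, pandas 2.3.3 and matplotlib 3.10.9 were used. Depth was between 29342195 and 32108055 estimated counts per tumor. No batch is given in the labels.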

Additional observations from a re-analysis of the deposited data

How the results depend on the processing

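No paired analysis was possible because the tumor numbers run from m1 to m12 and pair nothing across groups. After VCR the number of genes called among the 9 was 3, and 3 again with DESeq2's size factors, 4 with DESeq2 on 12 tumors (*Axl* added) and 2 with DESeq2 on only the groups compared. It was 1 (*Wwtr1*) with no filter, with transcript length offsets and with limma-voom, and 0 at a threshold of 0.05, with only the groups compared, and without m5 and m9 together. With each tumor left out in turn it lay between 0 and 3. In the treated average it was 0, but 3 with DESeq2 on 12 tumors and between 0 and 2 with each tumor left out. The counts of the other 5 comparisons stayed at 0 in all alternatives. The numbers of all genes called moved more: 977 after VCR became 2215 with DESeq2 on 12 tumors and 9 at 0.05, and between 0 and 2012 with a tumor left out. Against edgeR's 0 in each, DESeq2 on 12 tumors called 278 genes after RCM1-NPFA, 60 after the combination and 472 in the interaction, and DESeq2 on only the groups compared called 34 after RCM1-NPFA, 251 after the combination, 40 for the combination against VCR and 18 for it against RCM1-NPFA. Without m5 and m9, 138 genes were called after the combination. In the treated average 12 genes became 1305 with DESeq2 on 12 tumors. For *Wwtr1*, *Tead1*, *Lats1*, *Axl*, *Amotl2* and *Ajuba* the direction after VCR held in 21 of 21 alternatives. It also held for *Arhgap29*, between -1.20 and -0.87, a description since these values chose the gene. Not all 21 could turn a direction. The threshold of 0.05 leaves the log2 fold change as it was. Leaving out an RCM1-NPFA or combination tumor changes neither group compared. The log2 fold change of *Yap1* after VCR turned from 0.0023 to -0.013 with DESeq2's size factors, -0.0065 with no filter, -0.015 with only the groups compared, -0.14 with length offsets, -0.0092 with DESeq2 on 12 tumors and -0.0083 with DESeq2 on only the groups compared, and ran from -0.066 to 0.061 with a tumor left out. *Lats2* ran from 0.0013 to 0.15 with a tumor left out. Without m5 and m9 that of *Lats2* was -0.0040 and that of *Ankrd1* -0.048, and *Ankrd1* ran from -0.043 to 0.16 with a tumor left out. The causes were not tested. With 3 tumors a group, a difference the size of those of *Wwtr1*, *Tead1* and *Lats1* was called or not depending on single tumors. From curated transcripts alone, with no new quantification, mean TPM in vehicle-treated tumors was 11.3 for *Arhgap29* and 5.27 for *Axl*, in place of 34.1 and 378.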
